A study of Mus musculus with 42 samples.

Results

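Of the 141251 tiles of 100 bp in the methylation table, 33497 lay inside the listed span of a gene and more than 2000 bp from the listed start and end of every gene, and are called gene body tiles here. The 3906 gene body tiles described below were chosen by their measured values, as those with a mean methylation of 90% or more over the 9 libraries of the table. They make up 11.7% of the gene body tiles and 2.77% of all tiles, and lie in 2127 of the 6322 genes that hold a gene body tile. Another 4195 genes held only gene body tiles under 90%. The label "almost fully methylated" describes the mean, since 490 of the 3906 tiles (12.5%) were at 90% or more in each of the 9 libraries and 134 had a library under 80%.

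Wild-type C57BL/6 males, 8 weeks old at the start, received DEHP, a phthalate plasticizer, for 67 days at 2.5 mg/kg/day (low) or 25 mg/kg/day (high), or vehicle alone (control). They were mated with unexposed females, and the offspring labelled C57BL/6 * DBA/2J, wild type and male were taken at embryonic day 7.5, during gastrulation. The labels list sperm of males aged 14 weeks, embryo and extra-embryo as the tissues. A start at 8 weeks followed by 67 days ends later than 14 weeks, so these ages do not match as given. The methylation table holds 3 control, 3 low and 3 high libraries from reduced representation bisulfite sequencing (RRBS; cytosine methylation is read near CCGG sites), and the expression table holds 2 RNA libraries per group. The column names of both tables give treatment and a number but not the tissue, and nothing states which libraries came from separate litters or how many animals were pooled, so a p-value measures only the spread between these libraries. Of the markers fixed for a check of the tissue, all 10 of embryonic epiblast and mesoderm were listed in the expression table, with summed levels of 1811 to 2888 CPM (counts scaled to the library total) per library. All 8 visceral endoderm markers were listed as well (1091 to 2486 CPM), whereas 6 of 10 extraembryonic ectoderm and trophoblast markers were (63.1 to 125 CPM) and Elf5, Esx1, Gcm1 and Tpbpa were not. For maternal decidua 5 of 8 markers were listed (Prl8a2, Pgr, Bmp2, Cebpb and Des, 27.75 to 33.97 CPM), and for blood 3 of 6 (8.27 to 15.72 CPM). Whether maternal tissue was present in the RNA libraries was not tested. Only 1 of 8 sperm and germ cell markers was listed, Ddx4. No such check was made for the methylation table. Depth could not be read from either table, because the scaling of the CPM columns is unknown and the tiles carry no coverage.

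DNA methylation in mammals sits mainly on the cytosine of CpG dinucleotides. It is placed on unmethylated DNA by Dnmt3a and Dnmt3b, copied after replication by Dnmt1 with Uhrf1, and removed through oxidation by Tet enzymes. Around implantation the embryonic genome gains methylation nearly everywhere outside CpG islands, and inside transcribed genes nucleosomes carry H3K36 trimethylation, placed by Setd2, which travels with the elongating polymerase. The PWWP domain of Dnmt3 enzymes can bind this mark. Gene bodies are therefore known as regions that can be heavily methylated while the gene is active.

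The sequences that follow show what such tiles look like at the level of single CpG dinucleotides. Sequence was at hand for the 11 tiles that lie wholly inside promoter windows of RefSeq genes (GRCm38.p6), mostly genes other than the host. These were not the tiles planned for printing. All 11 contained CCGG and between 2 and 9 CpG (median 5). Capitals mark the CpG dinucleotides, and each tile is given on the plus strand. A pair of tiles next to each other in Ssbp3, which encodes a single-stranded DNA binding protein, are shown because they differ in CpG number while both are methylated. Tiles in Myo18a (an unconventional myosin), Pcnt (pericentrin of the centrosome) and Mical3 (a flavoprotein monooxygenase acting on actin) contained 5, 4 and 7 CpG.
Ssbp3, chr4:107027201-107027300: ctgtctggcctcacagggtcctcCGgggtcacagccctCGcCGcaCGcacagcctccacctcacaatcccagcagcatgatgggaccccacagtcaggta
Ssbp3, chr4:107027301-107027400: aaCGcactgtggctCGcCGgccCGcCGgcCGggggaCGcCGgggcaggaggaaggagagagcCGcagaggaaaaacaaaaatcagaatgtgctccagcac
Myo18a, chr11:77840701-77840800: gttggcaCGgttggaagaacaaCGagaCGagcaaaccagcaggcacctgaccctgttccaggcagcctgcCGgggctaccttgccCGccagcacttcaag
Pcnt, chr10:76388901-76389000: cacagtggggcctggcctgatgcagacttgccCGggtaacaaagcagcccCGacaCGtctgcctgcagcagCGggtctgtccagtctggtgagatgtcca
Mical3, chr6:120958701-120958800: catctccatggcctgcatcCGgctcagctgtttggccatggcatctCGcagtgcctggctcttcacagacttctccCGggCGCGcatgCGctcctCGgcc

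The first Ssbp3 tile, with 4 CpG, had a mean of 93.7%, and the second, with 9 CpG, had a mean of 90.2%. Its values were 88.7%, 91.5% and 82.6% in the controls, 94.0%, 91.6% and 96.0% at the low dose and 88.9%, 88.2% and 90.5% at the high dose. Control 3 was the lowest of the 9 libraries. For comparison, the 690 gene body tiles under 20% with a sequence in these windows had a median of 10 CpG and 70% G and C, and the 23 tiles of 80 to under 90% had a median of 4 CpG. These windows hold promoter sequence, so the counts describe tiles near RefSeq starts and not gene bodies at large.

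Of the 3906 tiles, 5 overlapped a RefSeq miRNA hairpin, of 20 hairpins that overlapped any gene body tile. Mir26b in Ctdsp1 and Mir194-1 in Iars2 lay wholly inside their tile and are shown as the RNA of the plus strand, with the bases of CpG dinucleotides in capitals.
Mir26b, chr1:74394310-74394394: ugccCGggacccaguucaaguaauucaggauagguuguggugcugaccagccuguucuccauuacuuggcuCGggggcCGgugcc
Mir194-1, chr1:185313319-185313385: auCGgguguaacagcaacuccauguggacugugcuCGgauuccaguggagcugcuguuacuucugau

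The Mir26b tile read 90.6%, 91.3% and 95.1% in the controls, 95.2%, 87.8% and 91.5% at the low dose and 89.7%, 91.7% and 94.9% at the high dose. The Mir194-1 tile read 94.6%, 89.1% and 92.6% in the controls, 93.7%, 87.3% and 92.6% at the low dose and 93.4%, 93.2% and 95.2% at the high dose. In both tiles the ranges of the 3 groups overlapped. Mir7018 in Hspg2, Mir702 in Plod3 and Mir7677 in Itpr3 overlapped their tiles in part.

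The methylation of gene body tiles had a peak at each end of the scale. Of all 33497, 5147 (15.4%) were under 10% and 8782 (26.2%) were at 80% to under 90%. The 3906 tiles at 90% or more had a median mean of 91.9% (quartiles 90.9% and 93.1%), and 146 of them reached 95%. The highest mean was 97.4%, at chr16:34025801-34025900 in Kalrn, which encodes kalirin, where the 9 libraries lay between 95.04% and 100%. The next was 97.2%, at chr3:131236901-131237000 in Hadh, an enzyme of mitochondrial fatty acid oxidation; both were named after their values were seen. At the threshold, tiles in Dhx57 and Epha4 were just inside and tiles in Traf3 and Gcnt2 just outside 90%, and all 4 had a mean of 90% after rounding.

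**Figure D1:**
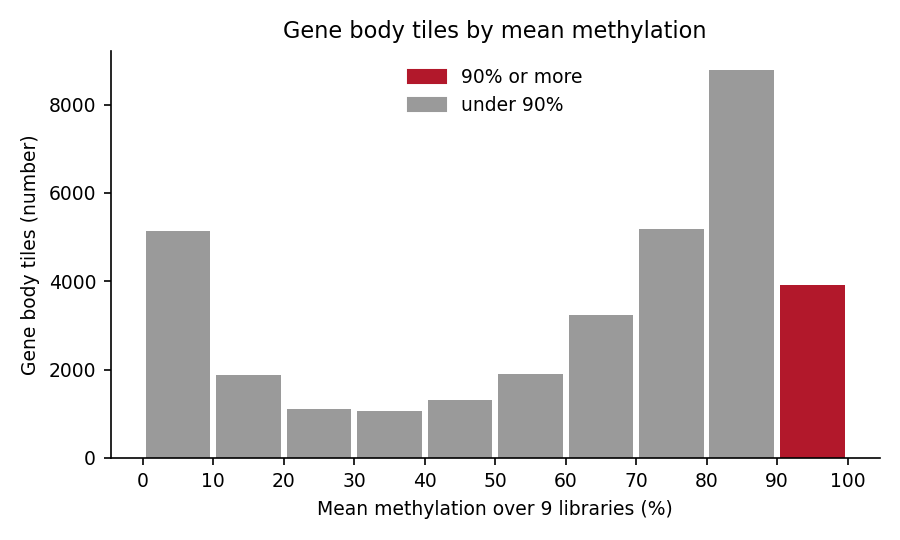
Number of gene body tiles (y axis) in steps of 10 percentage points of mean methylation over 9 libraries (x axis, %). The 3906 tiles in the red bar are those described here; the tallest bar holds the 8782 tiles of 80% to under 90%.

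Libraries differed little in these tiles. The mean over the 3906 tiles was 91.8%, 91.5% and 92.4% in the controls, 92.6%, 92.02% and 92.4% at the low dose and 91.8%, 92.1% and 92.2% at the high dose, so that the groups overlapped. Group means were 91.9% ± 0.484 (SD, n = 3) for control, 92.3% ± 0.295 (SD, n = 3) for low and 92.1% ± 0.183 (SD, n = 3) for high. These means are set in part by the choice of tiles. When the tiles were chosen by the mean of the other 8 libraries, the library left out of the choice read between 90.9% and 92.1%. The SD within groups had a median of 3.09 percentage points per tile, against 4.26 for gene body tiles of 80 to under 90%, 5.66 for those of 20 to under 80% and 1.57 for those under 20%. Near 100% the spread has less room, and coverage was not known.

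The steadiest tiles by this SD lay in Agap1 (0.538 points) and Acsl1 (0.547 points), the latter encoding a long-chain acyl-CoA synthetase. The Acsl1 tile, chr8:46525401-46525500, stayed between 89.6% and 91.2% in all 9 libraries. The most variable lay in Ttc28, Nipa2 and Shd, with SDs of 8.55, 8.43 and 8.39 points. The Ttc28 tile, chr5:111224001-111224100, read 91.8%, 93.8% and 92.7% in the controls, 100%, 87.3% and 75% at the low dose and 97.5%, 95.7% and 83.1% at the high dose. Its dosed libraries spread on both sides of the controls.

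Neighbouring tiles were alike. Of 2007 tiles measured 100 bp from one of the 3906, 94.1% were at 80% or more, 52.4% were at 90% or more and 0% were under 20%, with a median of 90.2%. Of neighbours 1000 bp away (157 tiles), 90.4% were at 80% or more. Of tiles 100 bp from other gene body tiles, 4.64% were at 90% or more. Adjacent tiles may share reads and CpG content, which was not tested, and neighbours are not treated as independent. Most of the 3906 (2944, 75.4%) had no tile of the same class directly beside them, and the longest run was 8 tiles. Adjacent positions that were not measured count as having none, so this share depends on which tiles were measured.

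Genes that held these tiles were expressed at higher levels than the other genes with gene body tiles. Their mean CPM had a median of 36.95 (quartiles 17.2 and 76.6; 2127 genes), and the 4195 genes with only other gene body tiles had a median of 13.8 (quartiles 4.37 and 37.96), a ratio of 2.68. The ratio lay between 2.69 and 2.79 in each of the 6 RNA libraries taken alone. CPM is not divided by transcript length, and no transcript lengths were at hand, so genes were compared within classes of span. In the short, middle and long tertiles of gene span the ratio was 2.93, 2.71 and 2.60. A gene with many gene body tiles has more chances to hold one at 90%, and the ratio was 2.63 among genes with 1 gene body tile and 4.17 among genes with 10 or more. Genes are not replicates, so these values are given as a description.

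Along the scale of expression the share of gene body tiles at 90% or more rose at every step. Genes with a gene body tile that lies in no other gene (6216) were split into deciles by mean CPM. The share was 1.81% in the lowest decile (0.86 to 2.41 CPM), 2.59%, 5.20%, 8.65%, 10.7%, 13.05%, 15.04%, 18.1% and 20.7% in the deciles between, and 25.9% in the highest (106 CPM and above). The share of tiles under 20% showed no such order and lay between 17.9% and 25.9%. Tiles of 80 to under 90% went from 14.8% in the lowest decile to 32.3% in decile 5 and stayed between 28.5% and 31.9% above it. The tiles that were fewer at high expression were those of 20 to under 80%, with 63.6% of tiles in the lowest decile and 19.7% in the highest. Each methylation library gave the same direction: the share of tiles at 90% or more in that library alone was 2.93% to 4.45% in the lowest decile and 24.3% to 29.5% in the highest. Across genes, the Spearman correlation between mean CPM and the mean of a gene's body tiles was 0.326 (6216 genes), and 0.446 when tiles under 20% were left out (5926 genes).

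**Figure D2:**
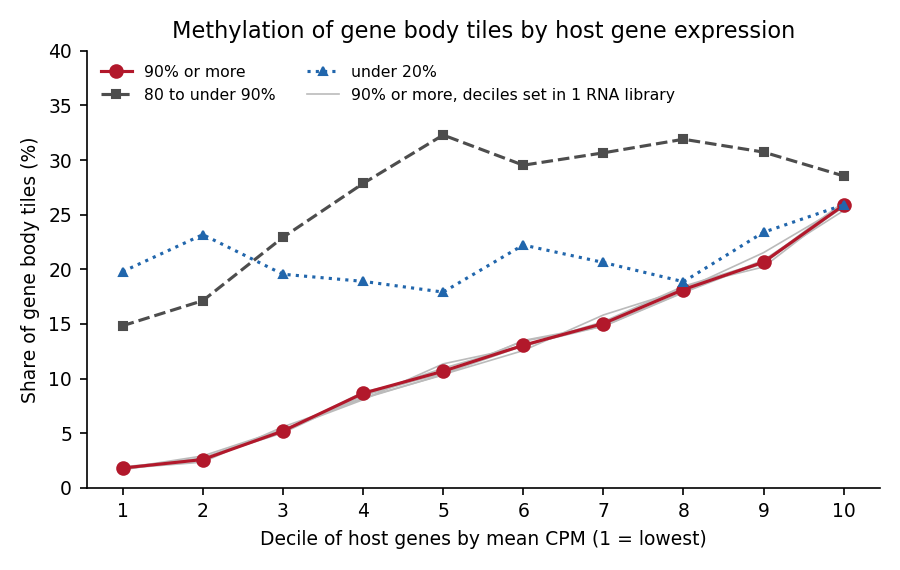
Share of gene body tiles (y axis, %) with a mean methylation of 90% or more, of 80 to under 90% and under 20%, by deciles of host genes ordered by mean CPM (x axis). The share at 90% or more goes from 1.81% to 25.9%; grey lines repeat it with the deciles set by each of the 6 RNA libraries alone.

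The highest quintile of expression had a larger share than the lowest at every distance from gene ends and in genes of every span. Among tiles 2000 to 5000 bp from the nearest gene end the share was 2.40% in the lowest and 23.8% in the highest quintile of expression. More than 50000 bp away it was 2.58% and 13.2%. In the shortest tertile of spans it went from 2.35% to 28.9%, and in the longest tertile from 2.12% to 19.5%. Exon and intron could not be told apart without gene models and were not analysed here.

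The share also differed along the gene. RefSeq gave the strand of the host gene for 26088 gene body tiles, which is 81.0% of those in a single gene outside chromosomes 18 and Y, neither of which was used here, and for 3066 of the 3906 tiles. The share at 90% or more was 3.13% in the first decile of gene length and 17.4% and 17.04% in deciles 9 and 10. By tertiles of gene length it was 5.97%, 11.8% and 16.3%. The share under 20% ran the other way, from 45.3% in the first decile to 7.46% in the last. The median tile of the class lay 67.3% of the way along its gene, and the median of the other gene body tiles 51.9%. Tiles of 80 to under 90% rose along the gene as well, from 12.5% in the first decile to 35.1% in the last. In distance from the start, tiles of the class and the other gene body tiles were close, with medians of 30.7 kb and 29.7 kb.

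**Figure D3:**
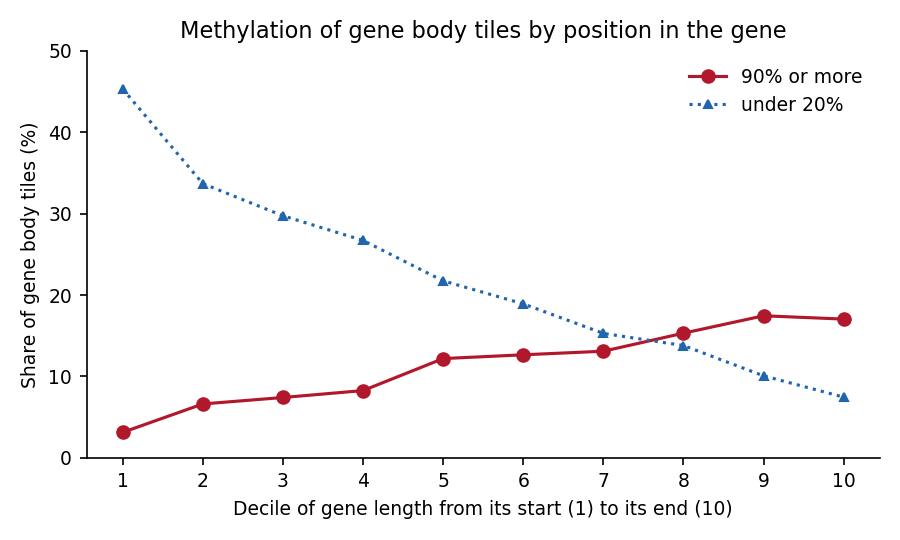
Share of gene body tiles (y axis, %) with a mean of 90% or more and under 20%, by deciles of gene length from start to end (x axis), for 26088 tiles with a known strand. The share at 90% or more is 3.13% in the first decile and 17.04% in the last.

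Autosomes were alike and the X chromosome stood apart. On the 19 autosomes 3899 of 33165 gene body tiles (11.8%) belonged to the class, with 10.3% to 14.6% per chromosome. On the X chromosome 7 of 326 did (2.15%), and X gene body tiles had a mean methylation of 37.1% against 59.5% on autosomes. In every library the X mean was between 36% and 38.03% and the autosomal mean between 58.6% and 60.2%. All genes with a gene body tile had a median of 18.6 CPM on the X and 20.5 CPM on autosomes. Of X gene body tiles, 50.3% were under 20%, against 20.7% on autosomes. The 7 tiles lay in Jpx, Bcor, Huwe1, Kdm5c, Araf, Clcn5 and Apoo. Jpx makes a long noncoding RNA of the X inactivation centre, and its tile read 93.0%, 84.5% and 97.1% in the controls, 95.9%, 86.9% and 95.1% at the low dose and 93.0%, 89.0% and 84.2% at the high dose. Huwe1, a ubiquitin ligase, had the highest mean of the 7, 95.7%. All offspring are labelled male.

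Most host genes held few of these tiles: 1275 of 2127 (59.9%) held 1, and 114 held 5 or more. Cdc42bpb, a kinase that acts with Cdc42 on the actin cytoskeleton, held the most, 23 of its 32 gene body tiles, between 90.1% and 95.4%. Its gene (ENSMUSG00000021279) spans chr12:111292976-111377718, and the lowest of its gene body tiles was at 47.1%. Plec, the cytolinker plectin, held 18 of 45 and also 4 tiles under 20%. Cit, a kinase of cytokinesis, held 17 of 42, Agap1, an Arf GTPase-activating protein, 16 of 64, and Fat1, an atypical cadherin, 16 of 27. Cmip held 13 of 43. In the 23 tiles of Cdc42bpb the mean was 91.7%, 92.5% and 94.2% in the controls, 92.4%, 92.8% and 94.8% at the low dose and 91.2%, 93.1% and 93.1% at the high dose, so the groups overlapped. Cdc42bpb itself read 112 and 109 CPM in the controls, 115 and 110 CPM at the low dose and 117 and 113 CPM at the high dose.

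The hosts with the highest mean CPM were Nedd4, a ubiquitin ligase (1714 CPM), Dnmt3b (1222 CPM), fibronectin Fn1 (1051 CPM), the splicing factor Srrm2 (930 CPM) and the 14-3-3 protein Ywhae (778 CPM). Srrm2 held both extremes, with 3 tiles between 91.6% and 95.6% and 5 of 9 under 20%. The single gene body tile of Dnmt3b had a mean of 93.1%, and read 94.5%, 87.7% and 94.0% in the controls, 91.2%, 95.1% and 93.2% at the low dose and 93.7%, 95.4% and 93.1% at the high dose. The hosts with the lowest mean CPM were Fry (0.961), the lipase Mgll (0.948) and the cilia gene Cfap61 (0.86). Fry held 1 such tile of 28, Mgll 1 of 12 and Cfap61 2 of 13. Only 40 of the 2127 host genes (1.88%) were under 2 CPM, against 439 (10.5%) of the 4195 other genes.

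Lists of genes differed in how many of their gene body tiles were this highly methylated. Over all genes the share was 11.7% of tiles, and 33.6% of genes with a gene body tile held one. The lists also differed in expression: the median CPM of genes with a gene body tile was 125 for chromatin regulators, 89.5 for cytoskeleton, adhesion and motor genes, 81.6 for the DNA methylation machinery and 69.3 for the H3K36 list, against 20.4 for all genes. The part of expression in these shares was not tested. The 77 gene body tiles in genes that write, erase or read H3K36 methylation included 19 (24.7%), in 10 of 14 genes, and the 411 tiles in chromatin regulators included 96 (23.4%), in 25 of 40 genes. Kdm4a, a demethylase of H3K9 and H3K36, held 7 of 11, and Nsd3, an H3K36 methyltransferase, 3 of 3. Kmt2d, an H3K4 methyltransferase, held 10 of 21. Cytoskeleton, adhesion and motor genes held 159 of 869 (18.3%), in 39 of 60 genes. The DNA methylation machinery held 19 of 98 (19.4%), in 8 of 13 genes, with Dnmt1 at 4 of 14 and Tet3 at 4 of 28.

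Developmental transcription factors had the lowest share of the lists with more than 25 gene body tiles, with 11 of 454 gene body tiles (2.42%), in 7 of 34 genes. Tcf7l2, a nuclear effector of Wnt signalling, held 5 of these 11 and Tcf7l1 held 1. The 34 factors with a gene body tile had a median of 30.9 CPM, above the 20.4 CPM of all genes with one. Imprinted genes held 7 of 103 (6.80%), in 4 of 17 genes. Igf2r, a maternally expressed receptor that clears Igf2, held 3 of 5, and the paternally expressed Impact held 2 of 6. The 3 Igf2r tiles averaged 90.7%, 90.4% and 90.7% in the controls, 91.0%, 95.1% and 92.8% at the low dose and 90.1%, 93.0% and 89.2% at the high dose, and the low-dose values lay above the controls but overlapped the high dose.

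Signalling genes held 65 of 531 (12.2%), with Akt1, a kinase of growth signalling, at 7 of 12. Fgfr2 counted 9, but its listed span of 2961 kb holds other genes, and only 1 of the 9 fell in the RefSeq span of 104 kb. Without Fgfr2 the signalling genes held 56 of 379 (14.8%). Zinc finger genes with Zfp symbols held 75 of 566 (13.3%), with Zfp407 at 7 of 18 and Zfp334 at 4 of 8. Proteasome genes held 4 of 25 (Psmd12 2 of 2, Psmc4 1 of 2), oxidative phosphorylation genes 2 of 24 (Atp5j2 1 of 1, Cox7a2l 1 of 4) and cytosolic ribosomal protein genes 0 of 16. These lists are small, were chosen with earlier results of the data known and are given without a test.

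**Figure D4:**
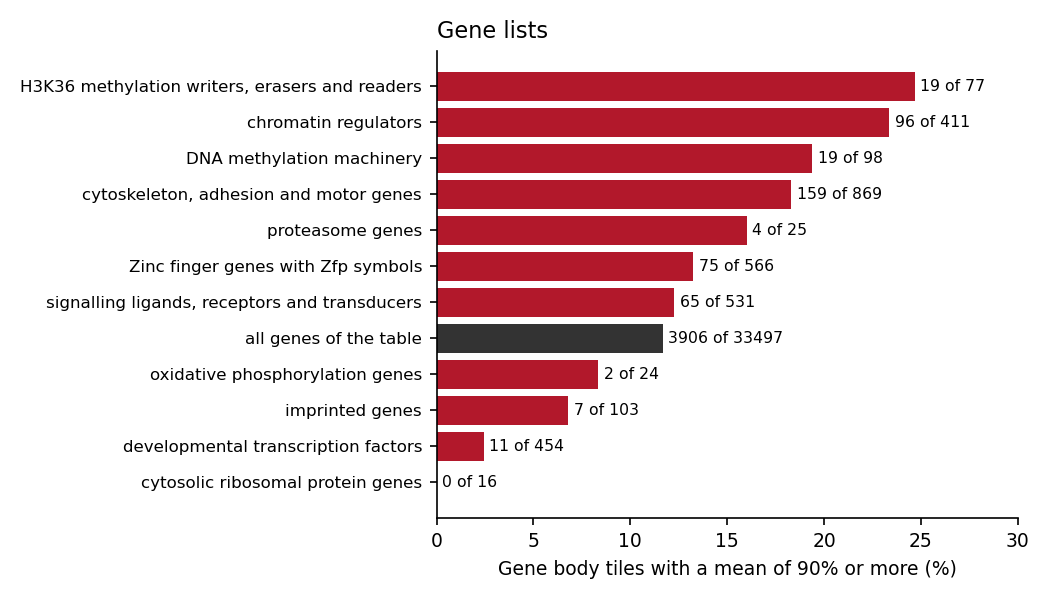
Share of gene body tiles with a mean of 90% or more (x axis, %) in 11 gene lists and in all genes (dark bar), with the number of such tiles of all gene body tiles beside each bar. The H3K36 list reaches 24.7%, all genes 11.7% and developmental transcription factors 2.42%.

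The question of the study is whether a father's exposure alters methylation, and the choice of these tiles did not use the difference between groups. Of the 3906 tiles, 0 were called in limma (Benjamini-Hochberg adjusted p under 0.05 over all 141251 tiles) for low against control, high against control or high against low, beside 0% of all tiles called in each. The smallest adjusted p from limma among them was 0.487, 0.545 and 0.754. At an unadjusted p under 0.05 from limma, 187 tiles (4.79%) were higher and 87 (2.23%) lower at the low dose than in control, beside 3.26% and 2.23% of all tiles. At the high dose 122 (3.12%) were higher and 80 (2.05%) lower than in control, beside 2.64% and 1.8%. For high against low, 85 (2.18%) were higher and 117 (2.995%) lower, beside 2.39% and 2.32%. The shares of gene body tiles under 90% were nearer to those of the class in most cases. Of these, 4.27% were higher and 2.37% lower for low against control. For high against control 3.41% were higher and 2.10% lower, and for high against low 2.89% and 2.98%. Both dose groups share the control libraries. Fitted with a trend or on log2 odds, the same test again called 0 of the 3906. With a trend, the limma share at an unadjusted p under 0.05 in either direction was 3.33%, 2.66% and 2.36%. Without a trend it was 7.01%, 5.17% and 5.17%. The share over all tiles with a trend is not given here, and the spread of tiles depends on their mean. In simulated data the test recovered 13.43% of losses of 10 points and 49.25% of 20 points, so smaller changes could be missed.

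The median difference over the 3906 tiles was 0.43 percentage points for low against control, with 56.7% of tiles higher, beside 0.0656 points over all tiles. It was 0.109 points when library means were centred and 0.131 points without the second control library. For high against control it was 0.162 points, beside 0.0842, and for high against low -0.271 points, beside 0.00606. Gene body tiles under 90% had medians of 0.228, 0.258 and -0.0026 points for low against control, high against control and high against low. A shift above control was thus not particular to the 3906 tiles. The medians over the 3906 tiles are within the range of single libraries, whose means over these tiles ran from 91.5% to 92.4% in the controls alone. The high against control median changed sign without the second control library (-0.163 points) and when library means were centred (-0.155 points). Differences over 10 points occurred in 10, 2 and 6 of the 3906 tiles for the 3 comparisons (0.256%, 0.0512% and 0.154%), beside 2.84%, 2.15% and 2.51% of all tiles. A mean of 90% or more leaves little room for a large difference, so the choice of tiles limits these counts.

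Tiles with the smallest unadjusted p in each direction are named below, chosen from many tiles and not by the size of the difference, and none passed the adjustment. The tile at chr1:89762601-89762700 in Agap1 read 90.3%, 89.9% and 89.8% in the controls, 95.1%, 94.3% and 94.6% at the low dose and 96.0%, 94.9% and 96.4% at the high dose. Every dosed library was above every control. It was 4.64 points higher at the low dose (SE 0.645, limma adjusted p = 0.487) and 5.77 points higher at the high dose (SE 0.645, limma adjusted p = 0.545). It is also the tile with the smallest SD within groups. The 16 tiles of the class in Agap1 together did not separate, with means of 91.3% to 91.9% in the controls, 91.8% to 92.6% at the low dose and 91.1% to 92.3% at the high dose.

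Tiles in Rprd2, which encodes a regulator of RNA polymerase II, and in Erich1 gave the same order. At chr3:95779401-95779500 in Rprd2 the controls read 90.8%, 89.2% and 91.1%, the low dose 95.6%, 98.0% and 97.1% and the high dose 96.0%, 98.3% and 95.8%. At chr8:14033301-14033400 in Erich1 the controls read 88.5%, 89.2% and 90.6%, the low dose 95.7%, 95.6% and 94.0% and the high dose 94.0%, 96.2% and 96.1%. In both tiles the 6 dosed libraries lay above the 3 controls (limma adjusted p = 0.601 and 0.936 in Rprd2, 0.640 and 0.893 in Erich1, for low and for high against control). The tile at chr4:132334201-132334300 in Rcc1, the nucleotide exchange factor of Ran, was highest at the low dose. It read 88.1%, 86.7% and 90.4% in the controls, 95.3%, 96.4% and 97.4% at the low dose and 92.1%, 91.1% and 92.9% at the high dose, 7.96 points higher at the low dose than in control (SE 1.13, limma adjusted p = 0.490).

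Lower values in dosed libraries were found in single tiles as well. At chr11:60706601-60706700 in Llgl1, a cell polarity gene, the controls read 96.4%, 97.0% and 95.7%, the low dose 95.7%, 92.1% and 89.6% and the high dose 86.1%, 77.8% and 83.3%. The high-dose libraries were the lowest 3, with a difference from control of -13.9 points (SE 2.33, limma adjusted p = 0.936). At chr9:80136801-80136900 in Senp6, a SUMO protease, the controls read 100%, 97.1% and 100%, the low dose 94.9%, 94.3% and 95.8% and the high dose 91.3%, 92.9% and 89.6%. The groups did not overlap, in the order control, low, high (limma adjusted p = 0.815 for low and 0.884 for high against control). In the phosphatase gene Ppm1h the tile at chr10:122731201-122731300 read 97.2%, 100% and 95.8% in the controls, 95.2%, 97.2% and 95.2% at the low dose and 88.9%, 85.5% and 90.7% at the high dose.

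At the low dose, tiles in Rpe, Lrig1 and Cfap61 had the smallest p among the lower ones. At chr1:66716001-66716100 in Rpe, an enzyme of the pentose phosphate pathway, the controls read 97.1%, 96.4% and 96.2%, the low dose 92%, 90.8% and 91.6% and the high dose 93.3%, 94.7% and 95%, so that all 6 dosed libraries lay below the controls. At chr6:94608901-94609000 in Lrig1, which restrains ErbB receptors, the low dose read 87.7%, 89.1% and 87.3%, below the controls (98.0%, 94.7% and 92.5%) and the high dose (94.7%, 94.4% and 96.2%). The cilia gene Cfap61, one of the lowest expressed hosts, had 98.4%, 94.6% and 95.3% in the controls, 81.7%, 87.7% and 88.7% at the low dose and 87.7%, 90% and 90.5% at the high dose at chr2:146097601-146097700. In Cfap61, too, all dosed libraries lay below the controls, and the dose groups overlapped. For low against control the limma adjusted p was 0.490 in Rpe, 0.678 in Lrig1 and 0.678 in Cfap61.

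For high against low the smallest p belonged to tiles in the heparan sulfate proteoglycan gene Hspg2, in Bend3 and in Pnpla6 among lower tiles, and in Kif3b, Lrig1 and Dst among higher ones. The Hspg2 tile at chr4:137564201-137564300 read 91.0%, 89.2% and 91.5% in the controls, 96.5%, 97.2% and 100% at the low dose and 85.2%, 89.6% and 90% at the high dose. Here the low-dose libraries were the highest, and the high against low difference was -9.64 points (SE 1.57, limma adjusted p = 0.754). The Bend3 and Pnpla6 tiles differed by -7.69 and -10.2 points between the high and the low dose, and the Kif3b and Dst tiles, both in genes of microtubule transport or anchoring, by 5.97 and 7.75 points (limma adjusted p = 0.754, 0.754, 0.782 and 0.872).

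**Figure D5:**
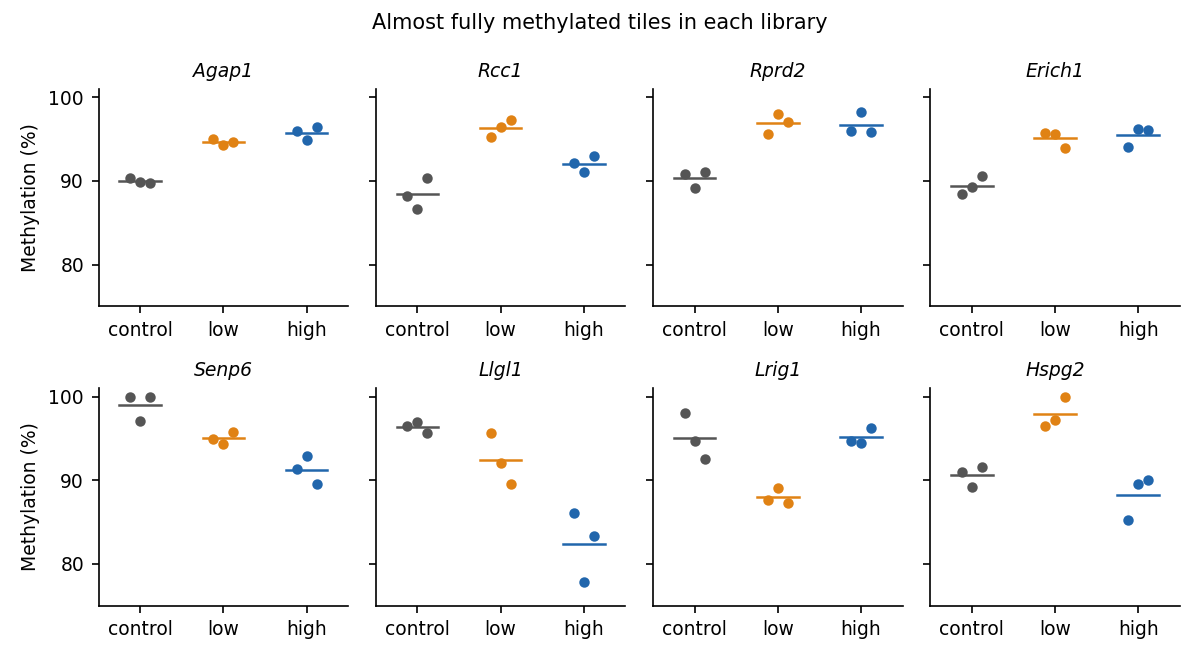
Methylation (y axis, %, starting at 75) of 8 named tiles in each of 9 libraries (points), by group (x axis), with a line at the mean of the 3 libraries. In the Agap1, Rprd2 and Erich1 tiles all dosed libraries lie above the controls, and in the Llgl1 tile the high-dose libraries lie lowest; none passed the adjusted threshold.

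Expression of the host genes was compared between the same groups. In limma on log2(CPM + 1), 0 of the 2127 host genes passed an adjusted p under 0.05 in any comparison, beside 0%, 0.0077% (1 gene) and 0% of the 12987 genes tested for low against control, high against control and high against low. At an unadjusted p under 0.05, 18 host genes were higher and 46 lower at the low dose than in control (0.846% and 2.16%, beside 1.9% and 2.97% of all genes). At the high dose 55 were higher and 22 lower than in control (2.59% and 1.03%, beside 3.65% and 1.64%). For high against low, 119 were higher and 32 lower (5.59% and 1.504%, beside 5.69% and 2.22%).

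The calls depended on single libraries. Without the second low-dose library, limma called 25 of 2127 host genes for high against low (17 higher, 8 lower; 1.18%), beside 2.24% of all genes tested, and 2 host genes lower at the low dose than in control, Fgfr2 and Lhfpl2 (0.094%, beside 0.501% of all genes). Without the second control library it called 3 laminin chain genes, Lama1, Lamb1 and Lamc1, lower at the low dose than in control (0.141%, beside 0.077% of all genes). Lama1 read 231 and 48.98 CPM in the controls, 33.9 and 42.4 CPM at the low dose and 124 and 109 CPM at the high dose. The controls read 276 and 155 CPM for Lamb1 and 300 and 146 CPM for Lamc1, against 153 to 155 and 126 to 142 CPM at the low dose. The second control was thus near the low-dose libraries in all 3 genes, and these calls rest on the first control alone. Lama1 was also called higher for high against low when either control library was left out. Each of these fits leaves 1 library in a group, which is then assumed to vary like the others. The second control library had the lowest summed level of the 8 visceral endoderm markers, 1091 CPM against 2308 CPM in the other control and 1762 to 2486 CPM in the dosed libraries, and the part of this in the laminin values was not tested. In such tissue mixtures fewer cells of a type and less RNA per cell cannot be told apart.

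Host genes with the smallest expression p included Tshz1, a zinc finger homeobox gene, at 5.33 and 3.91 CPM in the controls, 3.11 and 4.78 CPM at the low dose and 9.16 and 9.85 CPM at the high dose. Both high-dose libraries were above the other 4 (log2 difference from control 0.91, SE 0.18, limma adjusted p = 0.866). Thsd4, an extracellular matrix gene, read 2.22 and 1.80 CPM in the controls, 1.54 and 1.73 CPM at the low dose and 3.63 and 4.55 CPM at the high dose, also highest at the high dose (log2 difference from control 0.76, SE 0.13, limma adjusted p = 0.866). The 2 tiles of the class in Tshz1 and the 1 in Thsd4 were compared with this. The Thsd4 tile read 82.5%, 89.6% and 91.3% in the controls, 96.2%, 97.9% and 94.9% at the low dose and 88.9%, 92.2% and 85.1% at the high dose, so its highest values were at the low dose. The Tshz1 tiles averaged 90.5% to 95.8% in the controls, 92.2% to 95.1% at the low dose and 90.6% to 94.1% at the high dose, and overlapped.

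Among host genes with the smallest p in the lower direction, the ligand gene Wnt2b read 36.3 and 33.1 CPM in the controls, 39.3 and 38.3 CPM at the low dose and 29.9 and 26.9 CPM at the high dose (log2 difference of high from low -0.44, SE 0.08, limma adjusted p = 0.233). Wnt3, which is needed to form the primitive streak, read 13.2 and 15.3 CPM in the controls, 21.3 and 16.04 CPM at the low dose and 11.8 and 11.2 CPM at the high dose (log2 difference of high from low -0.64, SE 0.14, limma adjusted p = 0.290). Tcf7l2 read 33.5 and 30.5 CPM in the controls, 30.9 and 31.1 CPM at the low dose and 26.3 and 24.5 CPM at the high dose. In all 3 genes the high-dose libraries were the lowest, and none passed the threshold. Not all genes of the Wnt pathway lay in this direction. Without the second low-dose library, the feedback inhibitor genes Axin2 and Nkd1 were higher for high against low (log2 differences 0.53 and 0.67). In that fit, which leaves 1 low-dose library, Wnt3 was lower (log2 difference -0.83). At the low dose the smallest p belonged to Manf and Abtb2 (log2 differences from control 0.25 and 0.33) and to Antxr1 and Hnrnpr (-0.34 and -0.20), each with a limma adjusted p of 0.928.

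Differences in methylation of the tiles were set against differences in expression of their genes, and the correlations were near 0. Across 2086 genes Pearson's r between the mean difference of a gene's tiles and its log2 difference was -0.0106 for low against control, -0.0128 for high against control and -0.0268 for high against low. The tissue of the methylation libraries is unknown, so methylation and expression may come from different tissues. No tile of the class and no host gene passed the adjusted threshold, and the choice of tiles narrows their range. Correlations near 0 therefore cannot tell whether the changes are related. The genes that set and read methylation were measured as well. Of 22 genes of the DNA methylation machinery and 23 of the H3K36 list, 0 passed in limma in any comparison, and at an unadjusted p under 0.05 there were 1, 3 and 3 in the first list and 0, 1 and 0 in the second, beside 4.87%, 5.29% and 7.91% of all genes. Dnmt3b read 1191 and 1389 CPM in the controls, 1519 and 1202 CPM at the low dose and 1089 and 940 CPM at the high dose, so that the high-dose libraries were the lowest (log2 difference from control -0.35, SE 0.13, limma adjusted p = 0.866). The other 9 epiblast and mesoderm markers summed to 1023 and 871 CPM at the high dose, also the lowest, against 1086 to 1368 CPM in the other libraries, and their part in the Dnmt3b values was not tested. Dnmt3l, the cofactor of these enzymes, held no such tile and went the other way. It read 2.72 and 2.12 CPM in the controls, 2.53 and 1.65 CPM at the low dose and 5.19 and 4.24 CPM at the high dose (log2 difference from control 0.74, SE 0.17, limma adjusted p = 0.866). Dnmt1 stayed between 257 and 284 CPM and Uhrf1 between 325 and 334 CPM in all 6 libraries. Tet3 was lowest at the low dose (44.9 and 44.5 CPM, against 49.0 and 53.5 CPM in control and 51.3 and 51.5 CPM at the high dose; limma adjusted p = 0.928).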

How the data were processed

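The methylation table gives, for each 100 bp tile and library, a percent calculated and deposited by the authors, with no read number behind it. The expression table gives CPM, as the authors' file headers name them. All CPM of a library divided evenly by 1 step (tolerance 0.01, 100% of values), but the steps are scaled and were not read as counts, so no count test was run. Lines without a gene held 27.9% to 29.8% of the CPM total and were left out. The submitters' processing notes name, with no role, edgeR, SAMtools, TopHat, Bowtie 0.12.2, methylKit, Bismark, Trim Galore and Bowtie2, and the builds mm8 and mm10. Gene spans are those of the expression table (105 of 12988 genes had no coordinates). The tiles were taken as GRCm38: all 10634 tiles wholly inside RefSeq GRCm38.p6 promoter windows contained a CpG, against 89.9% and 85.1% after shifts of 5000 and 100000 bp. Of the 3906 tiles, 99.1% lay inside the RefSeq span of a host gene, and 220 (5.63%) lay within 2000 bp of an end of a RefSeq gene that the expression table does not list.

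Groups were taken from column names. Methylation was tested with limma 3.58.1 (R 4.3.3) on percent, without a trend, over all tiles, and expression with limma with a trend on log2(CPM + 1) over the 12987 genes with at least 1 CPM in 2 libraries. Each fit held all 3 groups. Fold changes on this scale understate the change of low genes. Both scripts were tested on simulated data. Of losses of 10, 20 and 40 points planted in tiles of the class at the high dose, limma recovered 13.43%, 49.25% and 98.51%. Of log2 differences of 1 and 2 planted in genes with a mean log2(CPM + 1) over 3, it recovered 88% and 98%. Recovery in genes below that level was not simulated. Named tiles and genes follow a rule: the 3 tiles with the smallest p per direction and comparison, the 6 genes with most tiles, the 5 highest and 3 lowest hosts by CPM, at most 2 genes per list, the 3 most and 2 least variable tiles, 2 host genes per direction and comparison, and 2 tiles on each side of the threshold. Symbols starting with Gm and a digit or ending in Rik were passed over, and 1 gene that the rule names is not reported here. The X chromosome tiles, the genes called without a library, Uhrf1 and Dnmt3l were named after their values were seen. The members and lists were chosen with earlier results of these data known. Alternatives covered the methylation threshold, the distance, the fit, the scaling, the filter, the pseudocount and each library. The choice of tiles by the other 8 libraries was added after seeing the data.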

Additional observations from a re-analysis of the deposited data

How the results depend on the processing

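No alternative called any of the 3906 tiles: 0 in each comparison for every threshold, distance and fit tried and for every library left out (0 to 0). The share at an unadjusted p under 0.05 in limma, 7.01%, 5.17% and 5.17% for low against control, high against control and high against low, was 3.33%, 2.66% and 2.36% with a trend and 4.11%, 2.05% and 3.42% for tiles of 95% or more. Without single libraries it was 6.35% to 7.78%, 5.15% to 6.96% and 5.22% to 6.20%. The median difference was 0.131 to 0.650 points (low against control), -0.163 to 0.353 (high against control) and -0.536 to -0.167 (high against low) without single libraries. Low against control was 0.109 with centred library means, and high against control reversed to -0.155 points with centred library means and to -0.220 for tiles of 95% or more; the cause was not tested. The CPM ratio of 2.68 was 2.94 and 3.15 at thresholds of 85% and 95%, 2.74 and 2.51 at 5000 and 1000 bp, 3.33 for genes with at least 3 gene body tiles and 2.68 to 2.72 without single libraries. CPM per kb of exon was not run, since no exon lengths were at hand. Host genes called in expression numbered 1 for high against low with only those groups in the fit, 0 to 3 (low against control), 0 to 0 (high against control) and 0 to 25 (high against low) without single libraries, and 0 otherwise. The replicate block on the numbers in the column names called 0 tiles and 0 host genes; the numbers are not known to pair libraries. All 18 differences of named tiles kept their direction in 252 refits, and 12 of named genes in 166. These tiles and genes were picked for a small p in the same libraries, and several refits leave the difference unchanged by construction. Their direction was thus largely fixed by the choice, and its stability is no separate evidence. Unknown coverage limits the precision of single tiles.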
